A study of Mus musculus with 18 samples.

Results

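The endothelial marker genes are 10 genes whose transcripts mark the cells that line blood vessels: Pecam1, Cdh5, Kdr, Flt1, Tek, Tie1, Vwf, Emcn, Esam and Plvap. They were taken by symbol from the deposited count tables, and all 10 were found among the 24421 genes of each table. RNA-seq counts of 18 libraries labelled as mouse esophageal organoids were used, in 6 groups. Organoids are three-dimensional cultures grown in a basement membrane gel. Every library was labelled Trp53-/- with Myc overexpressed (Myc OE) and a guide against Cdkn2a (sgCdkn2a). The sgTgfbr2 groups carry a further guide against Tgfbr2, the gene of a TGF-beta receptor, and sgScr stands for the groups without it. The groups were premalignant organoids with sgScr (n = 3) or sgTgfbr2 (n = 4, from 2 numbered lines), tumor organoids as sgScr (n = 3) or sgTgfbr2 (n = 2), and tumor sgTgfbr2 organoids given DMSO as vehicle (n = 3) or 2 µM pinaverium bromide (PB, a calcium channel blocker, n = 3) after 72 h of culture. The animals' age and strain are not given in the labels. The listed medium held 2 µM A83-01, which blocks the kinase of the receptor Tgfbr1, and named no VEGF. Whether replicates were separate cultures or animals is not stated, so the p-values rest on a spread between libraries that may be technical.

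Endothelial cells form the inner lining of vessels, and are not a usual part of an epithelial organoid culture. VEGF binds the tyrosine kinase receptor Kdr, which drives endothelial growth, and Flt1, which binds VEGF tightly and acts largely as a trap for it. Angiopoietins bind Tek (Tie2), and Tie1 is a related receptor that pairs with Tek. Cdh5 (VE-cadherin), Pecam1 and Esam hold endothelial cells together at their junctions. Vwf is a clotting glycoprotein that endothelial cells store, Emcn (endomucin) is a surface sialomucin of capillaries and veins, and Plvap forms the diaphragms of endothelial fenestrae and caveolae. Transcription factors of the ETS family, which bind around a GGAA core, are known regulators of endothelial genes.

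Promoter sequences from RefSeq (GRCm38.p6) were matched for 5 of the 10 genes, Emcn, Tek, Tie1, Kdr and Flt1. Those of the receptors Tek, Kdr and Flt1 and of Emcn are shown because these genes behaved differently: Emcn had no count outside the tumor comparison, Tek differed most between the tumor groups, and Flt1 was also counted in premalignant organoids. Each run is 5′ to 3′ on the gene's strand and lies within the 250 bases before the RefSeq start, leaving out bases in a GENCODE M21 exon. Capitals mark CAGGAA or CCGGAA on either strand, read on the shown strand as TTCCTG or TTCCGG.
Emcn (chr3:137340828-137341066, plus strand): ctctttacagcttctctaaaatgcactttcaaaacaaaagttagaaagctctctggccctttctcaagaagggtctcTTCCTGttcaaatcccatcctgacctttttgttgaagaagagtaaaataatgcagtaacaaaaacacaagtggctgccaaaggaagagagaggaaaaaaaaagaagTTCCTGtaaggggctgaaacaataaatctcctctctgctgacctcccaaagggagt
Tek (chr4:94739039-94739288, plus strand): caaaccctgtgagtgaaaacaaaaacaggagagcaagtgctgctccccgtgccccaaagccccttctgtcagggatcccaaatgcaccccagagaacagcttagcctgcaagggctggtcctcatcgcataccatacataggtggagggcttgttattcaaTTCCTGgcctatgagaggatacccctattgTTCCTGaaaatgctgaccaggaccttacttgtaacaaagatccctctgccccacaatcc
Kdr (chr5:75978459-75978705, minus strand): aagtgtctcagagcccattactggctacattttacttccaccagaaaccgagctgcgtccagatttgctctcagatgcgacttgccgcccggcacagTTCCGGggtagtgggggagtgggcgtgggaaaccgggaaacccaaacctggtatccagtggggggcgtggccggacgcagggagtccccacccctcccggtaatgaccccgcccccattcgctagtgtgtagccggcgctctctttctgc
Flt1 (chr5:147726012-147726261, minus strand): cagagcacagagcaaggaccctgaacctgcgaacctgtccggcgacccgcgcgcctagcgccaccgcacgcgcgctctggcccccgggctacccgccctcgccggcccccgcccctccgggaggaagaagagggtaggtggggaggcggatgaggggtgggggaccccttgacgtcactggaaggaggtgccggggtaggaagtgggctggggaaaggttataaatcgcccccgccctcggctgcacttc
Emcn and Tek each held 2 such matches, Kdr held 1 and Flt1 none, and the Tie1 window held 1. Thus 4 of the 5 windows had a match, against 35.1% of the 32851 promoter windows of that length in the table. The shorter core GGAA was in all 5 and in 93.4% of all windows. The Flt1 window held TATAAA, found in 12.4% of all windows. Its GC content was 70.4%, against 40.8% in Emcn and a median of 52.4% over all windows. These matches describe letters only.

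Before any comparison, the label was checked against the counts. Libraries are grouped below by the deposited table they came from, and levels are CPM, the count scaled to a common library total, unless stated. The 5 libraries of the tumor comparison, labelled as organoids, held 196.4 to 247.5 CPM of the 10 genes summed. The 13 libraries of the other 2 tables held 2.05 to 18.2 CPM. The vehicle libraries carry the same stage and genotype labels as tumor sgTgfbr2, yet their sums were 3.71 to 4.87 CPM against 230.6 and 247.5. For 9 of the 10 genes, all but Flt1, every tumor-comparison library lay above every other library. The same held for 2192 of the 20254 genes with any count, or 10.8%. Table and group cannot be told apart here, so no test was made of levels across tables. In bulk RNA, fewer cells of a type and less RNA per cell cannot be told apart either.

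**Figure D1:**
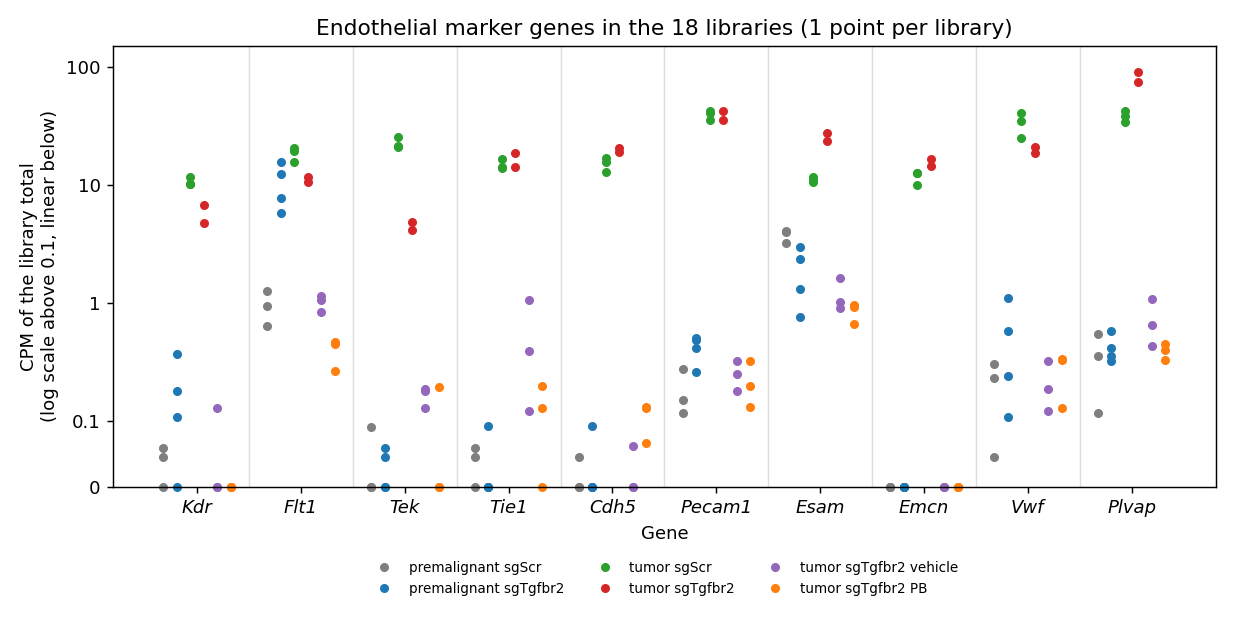
CPM of each endothelial marker gene (vertical axis, log above 0.1 and linear below) in each of the 18 libraries, 1 point per library, coloured by group. The 5 tumor-comparison libraries lie at 4.12 CPM or above for every gene, and Emcn is at 0 in the 13 others.

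Emcn and Cdh5 separated the libraries most plainly. Emcn stood at 12.7, 10.0 and 12.7 CPM in tumor sgScr and at 16.6 and 14.4 CPM in tumor sgTgfbr2. It had 0 counts in each of the 13 other libraries. In the vehicle group this is 0 of 47884195 counts, which allows a level of up to 0.0627 CPM, covering counting error only. Cdh5 had 275 to 376 counts per tumor-comparison library and 0 to 2 counts in each of the others. Kdr had 0 to 8 counts and Tek 0 to 3 counts in those 13 libraries, where 3 counts stand for 0.138 to 0.200 CPM. Cdh5, Kdr and Tek were therefore at or near 0 outside the tumor comparison.

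The other markers were also low there. Pecam1 was counted 2 to 11 times per library, at no more than 0.506 CPM, against 35.4 to 42.4 CPM in the tumor comparison. Plvap reached at most 1.09 CPM, Vwf 1.10 CPM and Tie1 1.06 CPM. Esam, which was at 0.661 to 4.09 CPM, and Flt1, at 0.264 to 15.6 CPM, were the exceptions. In premalignant sgScr, Esam supplied 67.9% of the summed CPM of the 10 genes and Flt1 17.2%. In premalignant sgTgfbr2 the order was reversed, with Flt1 at 72.9% and Esam at 14.9%. Without these 2 genes, a choice made after their values were seen, the sums were 0.834 and 1.59 CPM in the premalignant groups, 1.95 in vehicle and 1.16 in PB, against 185.9 and 202.4 in the tumor groups. The sums of other endothelial lists were less confined to the tumor groups. A wider list of 34 endothelial genes summed to means of 557 and 600 CPM there, against 274.1 to 382 elsewhere. A list of 24 capillary, arterial and venous genes summed to 358.4 and 372.9 CPM there. It summed to 258 and 319.2 CPM in the premalignant groups, but to 396.5 in vehicle and 429.1 in PB. A lymphatic list summed to 185.5 and 204.5 CPM in the tumor groups, against 127.3 to 160.7 elsewhere. A few genes carried much of these sums. By mean over the 18 libraries, Ets2 (161 CPM), Nrp2 (146.6 CPM) and Pdpn (68.0 CPM) led the lists, in that order. Gene by gene, every tumor-comparison library lay above every other library for 23 of 34, 14 of 24 and 3 of 9 genes. The same held for 10.8% of all genes with any count.

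Summed over all 10 genes, the level was 5.56 ± 0.719 CPM in premalignant sgScr (SD, n = 3; 4.75, 5.83 and 6.11) and 13.8 ± 3.56 in premalignant sgTgfbr2 (SD, n = 4; 14.2, 18.2, 13.3 and 9.54). It was 215.5 ± 16.5 CPM in tumor sgScr (SD, n = 3) and 239 ± 11.9 in tumor sgTgfbr2 (SD, n = 2). The vehicle and PB groups had 4.15 ± 0.627 and 2.41 ± 0.361 CPM (SD, n = 3 each). The highest sgScr tumor library, at 225.8 CPM, lay below the lower sgTgfbr2 library, at 230.6, so the sums did not overlap. With libraries scaled by TMM, edgeR's trimmed mean of M-values, the order of the tumor means turned, to 233.1 in sgScr and 212.4 in sgTgfbr2. The sum therefore gave no stable direction between the tumor groups.

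The 8 genes whose profile over the 6 group means was most like the summed markers were Rcn3, Pdgfra, Itih5, Col15a1, Mxra8, Colec12, Aldh1a1 and Igfbp4. Likeness was the root mean square difference of log2(CPM + 0.5) over the 6 means, each profile centred on its own mean. It ran from 0.373 for Rcn3 to 0.459 for Igfbp4, over 12995 genes with a mean of at least 1 CPM. Rcn3, a reticulum calcium-binding protein, stood at 29.3 and 31.7 CPM in the tumor groups and at no more than 0.778 CPM in the other group means. Pdgfra, a growth factor receptor typical of fibroblasts, stood at 62.8 and 40.6 CPM there and at no more than 2.90 CPM elsewhere. Of the markers themselves, Pecam1 (0.618) and Vwf (0.627) followed the sum most closely, and Flt1 (1.31) and Esam (1.28) least. Each marker is itself part of that sum, so its likeness to the sum is partly built in. The order rests on 6 points, all sharing the step between the tumor comparison and the other tables.

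Per kilobase of exon, which allows genes to be compared, Plvap was the highest marker in both tumor groups. In tumor sgScr the means in CPM per kb were 19.2 for Plvap, 6.35 for Pecam1, 4.78 for Tek, 3.87 for Esam, 3.59 for Cdh5, 3.02 for Tie1, 2.18 for Emcn, 2.07 for Vwf, 1.37 for Flt1 and 1.18 for Kdr. The neighbours Esam and Cdh5, Cdh5 and Tie1, Emcn and Vwf, and Flt1 and Kdr overlapped between libraries. In tumor sgTgfbr2 Plvap was at 41.3 CPM per kb, Esam second at 8.88, Pecam1 at 6.22 and Cdh5 at 4.70. Tie1 (3.33) and Emcn (2.86), whose libraries overlapped, came before Vwf at 1.23, Tek at 0.954, Flt1 at 0.825 and Kdr at 0.642. Tek was in place 3 in tumor sgScr and in place 8 in tumor sgTgfbr2. Outside the tumor comparison Esam led per kb in premalignant sgScr (1.32), vehicle (0.414) and PB (0.298), and Flt1 led in premalignant sgTgfbr2 (0.769), where its libraries overlapped those of Esam. In vehicle, Esam overlapped Plvap, the next gene.

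The tumor comparison asks what the Tgfbr2 guide changes in the libraries labelled tumor organoids. Whether these came from cultures alone or held other tissue cannot be told from the labels. Their skeletal muscle genes summed to means of 19850 and 239 CPM against 9.60 in vehicle, and their fibroblast genes to 3875 and 2811 CPM against 214.2 in vehicle. Within the comparison, the endothelial markers moved in different directions. Tek fell most, Kdr, Flt1 and Vwf fell about as much as each other, and Esam and Plvap rose. All 10 genes were tested by edgeR's quasi-likelihood test, and 2 rose and 4 fell at an adjusted p under 0.05, with 4 not past the threshold. Of the 15091 genes tested, 29.8% rose and 30.5% fell, so 2 and 4 of 10 lie near the background. The median log2 fold change of the 10 was -0.23, against -0.02 over all genes. With library totals in place of TMM the median over all genes was 0.26, and the share of higher genes among those called went from 49.4% to 64.3%, while the same count of markers rose and fell.

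**Figure D2:**
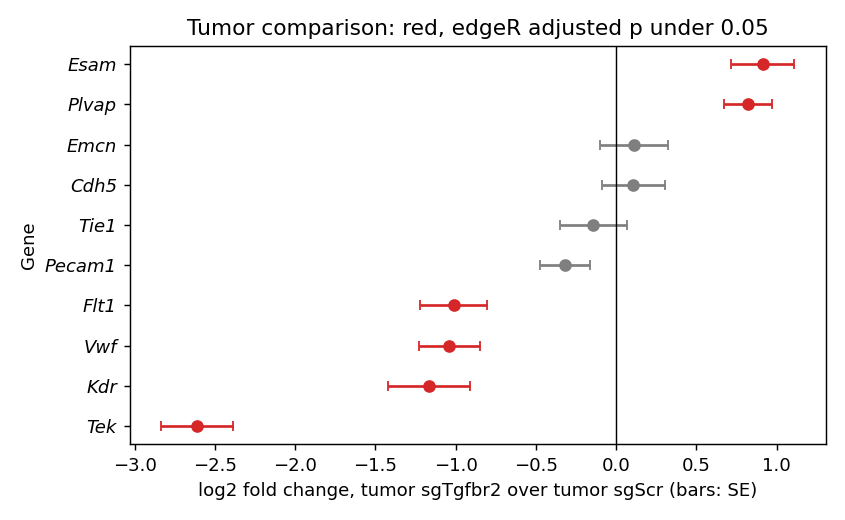
log2 fold change of each endothelial marker gene, tumor sgTgfbr2 (n = 2) over tumor sgScr (n = 3), by edgeR, with bars of 1 SE. Red marks an adjusted p under 0.05: Tek lies lowest at -2.61 and Esam highest at 0.91.

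Positions are those of GENCODE M21 on GRCm38. Among the receptors, Tek (chromosome 4, 94739289 to 94874976, plus strand) stood at 21.3, 21.1 and 25.2 CPM in tumor sgScr and at 4.12 and 4.87 CPM in tumor sgTgfbr2. Its log2 fold change was -2.61 ± 0.22 (SE; adjusted p = 1.29e-09), which is 6.11-fold lower, with both sgTgfbr2 libraries below all 3 sgScr libraries. Tie1 (chromosome 4, 118471191 to 118490061, minus strand), its partner, stood at 16.7, 14.1 and 13.8 CPM against 18.6 and 14.2 CPM. These overlapped, with a log2 difference of -0.14 (95% interval -0.58 to 0.29; adjusted p = 0.573), and the sign turned to 0.14 without TMM. Tek supplied 10.5% of the summed CPM of the 10 genes in tumor sgScr and 1.89% in tumor sgTgfbr2, while Tie1 supplied 6.91% and 6.83%. These shares do not depend on how libraries are scaled.

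Both VEGF receptors fell. Kdr (chromosome 5, 75932827 to 75978458, minus strand) stood at 10.2, 11.6 and 10.1 CPM in tumor sgScr and at 4.77 and 6.82 CPM in tumor sgTgfbr2, with no overlap. Its log2 fold change was -1.17 ± 0.26 (SE; adjusted p = 4.96e-04). Flt1 (chromosome 5, 147561604 to 147726011, minus strand) stood at 20.4, 15.7 and 19.4 CPM against 11.8 and 10.5 CPM, again apart, and its log2 fold change was -1.01 ± 0.21 (adjusted p = 2.46e-04). In 12 alternative settings Kdr ranged from -1.42 to -0.87 and Flt1 from -1.13 to -0.73 on the log2 scale, with every adjusted p under 0.05.

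The junction genes differed among themselves. Esam (chromosome 9, 37528078 to 37538319, plus strand) rose from 10.6, 11.8 and 10.9 CPM to 27.5 and 23.4 CPM, a log2 fold change of 0.91 ± 0.19 (SE; adjusted p = 3.61e-04). Cdh5 (chromosome 8, 104101625 to 104144511, plus strand) stood at 15.6, 12.7 and 16.9 CPM against 20.4 and 19.1 CPM. Although its CPM did not overlap, its log2 difference was 0.11 after TMM scaling (95% interval -0.30 to 0.51; adjusted p = 0.657). Pecam1 (chromosome 11, 106654217 to 106750628, minus strand) stood at 35.5, 40.7 and 42.4 CPM against 35.4 and 42.1 CPM. Its log2 difference was -0.32 (95% interval -0.64 to 0.01; adjusted p = 0.0837), and it passed without sgScr replicate 1 (-0.40, adjusted p = 0.0321). Over 12 alternatives its adjusted p ran from 0.0321 to 0.883. Of the 3 junction genes, then, Esam alone passed with all libraries.

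Plvap (chromosome 8, 71497765 to 71511752, minus strand) rose from 42.5, 33.7 and 38.4 CPM to 89.7 and 74.6 CPM, a log2 fold change of 0.82 ± 0.15 (SE; adjusted p = 7.10e-05). Its share of the summed CPM was 17.7% in sgScr and 34.3% in sgTgfbr2 tumor libraries. Plvap shares 1819 bases with Gtpbp3 on the opposite strand, and the strand setting of the counting is not given, so reads of the pair may be split between them. Gtpbp3 stood at 10.6 and 6.56 CPM in the tumor groups, lower where Plvap was higher, and at 26.9 CPM in vehicle, where Plvap was at 0.726 CPM. Vwf (chromosome 6, 125546774 to 125686679, plus strand) fell from 40.3, 25.0 and 34.5 CPM to 18.6 and 20.8 CPM, a log2 fold change of -1.04 ± 0.19 (adjusted p = 7.50e-05). Emcn (chromosome 3, 137341067 to 137432185, plus strand), with the levels given above, had a log2 difference of 0.11 (95% interval -0.33 to 0.55; adjusted p = 0.675).

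The wider list of 34 endothelial genes was tested in full in the tumor comparison: 5 rose, 10 fell and the median log2 fold change was -0.33. Eng, a TGF-beta co-receptor of endothelium, fell from 31.5 to 25.0 CPM (log2 fold change -0.62, adjusted p = 0.00284). Cd34, also found on fibroblast and muscle progenitors, fell from 158 to 38.5 CPM (-2.33, adjusted p = 1.71e-11). The ETS factor Ets1 rose from 12.1 to 32.9 CPM (1.15, adjusted p = 6.76e-05). Egfl7 was at 16.6 and 20.2 CPM, and did not pass after scaling (adjusted p = 0.986). Both were higher in premalignant sgScr than in either tumor group, Ets1 at 68.0 CPM and Egfl7 at 27.5 CPM. Of 24 capillary, arterial and venous genes 8 rose and 6 fell (median 0.30). The VEGF co-receptors Nrp1 (0.78, adjusted p = 2.03e-04) and Nrp2 (1.03, adjusted p = 1.77e-04) rose. So did Ephb4 (0.59, adjusted p = 0.00294), and Efnb2 did not pass (-0.32, adjusted p = 0.144). The 6 that fell lie outside these 4 genes, which had the list's highest mean CPM. Nrp1 and Nrp2 were also counted in premalignant organoids, at levels given below, where Cdh5 and Emcn were at or near 0. Of 8 lymphatic genes tested 2 rose and 4 fell (median -1.94), while the list's summed mean was 185.5 CPM in sgScr and 204.5 in sgTgfbr2. All of these counts stand beside 29.8% of all genes rising and 30.5% falling. Stab1, a scavenger receptor also found on macrophages, rose from 29.6 to 133 CPM (1.88, adjusted p = 8.69e-11), and Pdpn, a lymphatic glycoprotein that epithelial cells and fibroblasts also carry, rose from 25.0 to 52.6 CPM (0.78, adjusted p = 1.86e-04). Lyve1, a hyaluronan receptor of lymphatic endothelium that macrophages also carry, fell from 70.3 to 5.86 CPM (-3.88, adjusted p = 1.63e-13). Flt4, the lymphatic VEGF receptor, fell from 12.6 to 3.56 CPM (-2.11, adjusted p = 9.35e-07).

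The ligands of these receptors were measured too. Of 8 ligand genes tested in the tumor comparison 3 rose and 2 fell (median -0.30), beside 29.8% of all genes rising and 30.5% falling. Vegfa, the main ligand of Kdr and Flt1, rose from 28.9 to 84.1 CPM (log2 fold change 1.25, adjusted p = 3.03e-07), and Angpt2, a Tek ligand, rose from 1.46 to 4.13 CPM (1.21, adjusted p = 0.0252). Vegfb, which binds Flt1, stood at 21.3 and 18.7 CPM (-0.46, adjusted p = 0.0575). Vegfa was higher in each of the other group means than in either tumor group, from 191 CPM in premalignant sgScr to 452 in PB.

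Markers of other cell types moved alongside. Mural cell genes, which mark pericytes and smooth muscle around vessels, summed to 431.6 to 465.7 CPM in tumor sgScr and 1570 to 1676 in tumor sgTgfbr2, where 7 of 12 rose and 1 fell (median 1.20). Fibroblast genes summed to 3831 to 3933 and 2776 to 2845 CPM (2 of 12 rose and 8 fell), and immune genes to 1283 to 1352 and 1164 to 1273 CPM (5 of 14 tested rose and 4 fell), again beside 29.8% and 30.5% of all genes. Skeletal muscle genes, all 12 of which fell, summed to a mean of 19850 CPM against 239. Epithelial genes summed to a mean of 5620 against 14820 CPM, and 8 of 12 rose and 4 fell. Their log2 fold changes ran from -2.67 for Krt15 to 8.68 for Krt19. The platelet list, relevant because platelets also hold Vwf and Pecam1, summed to a mean of 77.5 CPM without the Tgfbr2 guide and 4778 with it, and 1 of the 4 genes tested rose and 2 fell. Nearly all of the higher sum was Ppbp, a platelet chemokine, which rose from 1.31 to 4733 CPM (log2 fold change 11.53, adjusted p = 1.17e-21). Ppbp does not mark platelets alone here. It also made up nearly all of the list's means of 353 and 398.7 CPM in the premalignant organoids, as given below. Gp1bb, a subunit of the platelet receptor for Vwf, fell from 32.0 to 3.51 CPM (-3.46, adjusted p = 4.25e-11). Pf4, at 30.5 and 26.8 CPM, fell after scaling (-0.47, adjusted p = 0.0276), and Itga2b was at 12.3 and 13.9 CPM (adjusted p = 0.726). What part any of these cells has in the endothelial markers' differences was not tested.

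**Figure D3:**
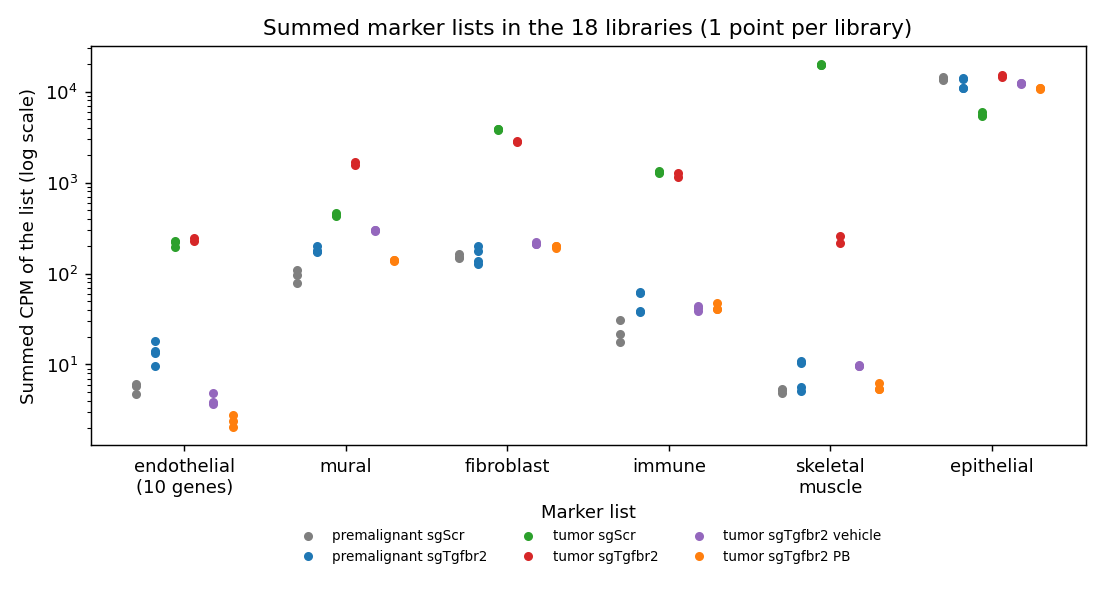
Summed CPM (log axis) of 6 marker lists in each library, 1 point per library, coloured by group. Endothelial, mural, fibroblast and immune sums are highest in the 5 tumor-comparison libraries, and the skeletal muscle sum separates the tumor groups, at a mean of 19850 CPM in sgScr and 239 in sgTgfbr2.

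In premalignant organoids the comparison asks what the Tgfbr2 guide changes before tumors form. Flt1 rose with the guide, Esam fell with an adjusted p at the threshold, and the remaining markers stayed rare. Flt1 stood at 0.937, 0.643 and 1.27 CPM in sgScr and at 12.4, 15.6, 7.68 and 5.78 CPM in sgTgfbr2, so every sgTgfbr2 library was above every sgScr library. The log2 fold change was 3.38 ± 0.41 (SE; edgeR adjusted p = 3.70e-04), a 10.4-fold higher level. It was called in all 16 alternative settings, between 2.76 and 3.84. The authors' deposited table gave Flt1 3.40 with an adjusted p of 4.73e-16.

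Esam moved the other way, with an adjusted p at the threshold. It stood at 3.22, 4.09 and 4.02 CPM in sgScr and at 0.760, 1.32, 2.99 and 2.34 CPM in sgTgfbr2, with no overlap. Its log2 fold change was -1.09 ± 0.40 (SE; edgeR adjusted p = 0.0499), 2.13-fold lower. The adjusted p ran from 5.69e-04 to 0.171 over the alternatives. The call was lost without any 1 of 6 libraries, at an adjusted p of 0.0862, 0.148 and 0.113 without sgScr replicates 1, 2 and 3, 0.0604 and 0.0988 without line 1 replicates 1 and 2, and 0.0549 without line 2 replicate 2. The authors' deposited table gave Esam -1.09 with an adjusted p of 0.0270.

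These 2 genes were the only markers with enough counts to be tested there, 1 higher and 1 lower. Of the 13098 genes tested, 22.7% were higher and 23.5% lower. The remaining 8 markers stayed at most at 1.10 CPM in every premalignant library. Kdr, the partner receptor of Flt1, had 2 counts over the 3 sgScr libraries and 13 over the 4 sgTgfbr2 libraries, Cdh5 had 1 and 2, and Emcn had none. Over the same libraries Pecam1 had 11 and 31 counts, Vwf 11 and 39, Plvap 21 and 30, and Tek and Tie1 2 and 2 each. The Flt1 difference was thus measured where Cdh5 and Emcn were at or near 0 and some other markers had low counts. Which cells the Flt1 counts came from was not tested.

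**Figure D4:**
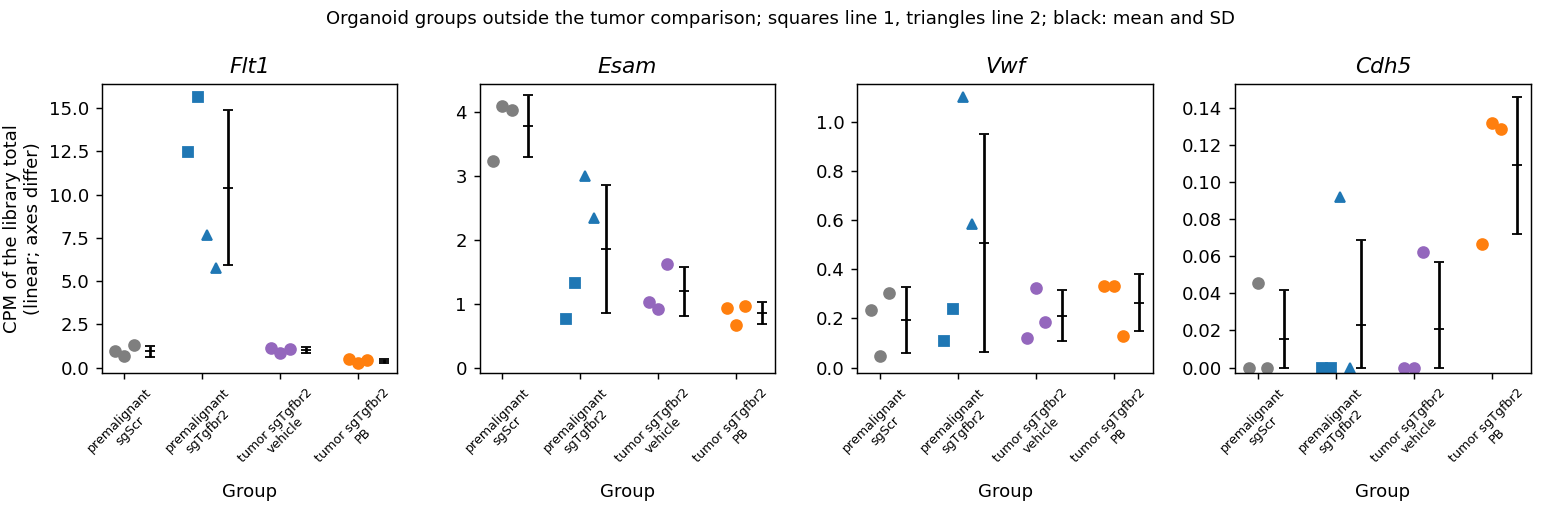
CPM of Flt1, Esam, Vwf and Cdh5 (linear axes that differ) in the premalignant, vehicle and PB libraries, 1 point per library, with squares for line 1 and triangles for line 2 and black bars for the mean and SD, not drawn below 0. Flt1 is at 5.78 to 15.6 CPM in premalignant sgTgfbr2 and at or below 1.27 CPM in the other groups shown, while Cdh5 does not pass 0.132 CPM.

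The 2 sgTgfbr2 lines differed in Flt1, Esam and Vwf. Flt1 averaged 14.0 CPM in line 1 and 6.73 CPM in line 2, Esam 1.04 and 2.66 CPM, and Vwf 0.174 and 0.844 CPM (n = 2 libraries each). A comparison of line 2 with line 1 within these 4 libraries, added after the data were seen, called 40.4% of 13118 genes. In it Flt1 was lower in line 2 (log2 fold change -1.03 ± 0.17, SE; edgeR adjusted p = 1.15e-05), and Esam (1.39 ± 0.38, adjusted p = 0.00372) and Vwf (2.31 ± 0.72, adjusted p = 0.0103) were higher. Against sgScr, Flt1 rose in each line alone, by 3.84 and 2.76 on the log2 scale. Esam passed in line 1 alone (-1.91) but not in line 2 (-0.57, adjusted p = 0.0698), and Vwf passed in line 2 alone (2.09, adjusted p = 0.0138) on 24 and 9 counts. A line's 2 libraries share their source, so they are not independent repeats of the guide.

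Other genes of the pathway in premalignant organoids are given from the same lists. Of the lists, 6 of 9 ligand genes, 4 of 9 lymphatic, 10 of 24 capillary, arterial and venous and 12 of 34 wider endothelial genes had enough counts. Flt4, the VEGF receptor related to Flt1, rose from 3.48 to 12.6 CPM (log2 fold change 1.79, edgeR adjusted p = 0.00122). The co-receptor Nrp1 fell from 21.1 to 6.95 CPM (-1.67, adjusted p = 3.58e-05) and Nrp2 rose from 116 to 167 CPM (0.47, adjusted p = 0.00814). Vegfa stood at 191 and 220.5 CPM (0.14, adjusted p = 0.307). Angpt2 rose from 0.605 to 1.57 CPM (1.33, adjusted p = 0.0451) and Angptl4, an angiopoietin-like secreted protein, fell from 5.79 to 2.27 CPM (-1.42, adjusted p = 9.54e-04). In the wider endothelial list 4 of the 12 tested rose and none fell: Cd34 (0.99), Bcl6b (1.24), Nos3 (1.03) and Ets1 (0.45). Over all genes tested, 22.7% rose and 23.5% fell.

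Markers of other cell types were counted in the premalignant libraries too. Of the genes tested, 2 of 4 mural, 2 of 4 immune and 1 of 2 fibroblast genes rose and none of these fell, beside 22.7% of all genes higher. They were Notch3 (log2 fold change 0.86, edgeR adjusted p = 5.74e-04), the smooth muscle gene Cnn1 (0.717 and 2.85 CPM; 1.91, adjusted p = 0.00239), Cd74 (1.39 and 5.16 CPM; 1.81, adjusted p = 0.00198), Cd68 (18.9 and 42.8 CPM; 1.12, adjusted p = 0.00844) and Pdgfra (0.926 and 2.90 CPM; 1.57, adjusted p = 0.00307). The part of such cells in the Flt1 difference was not tested. Immune genes summed to 17.6 to 31.1 CPM in sgScr and 37.5 to 62.9 CPM in sgTgfbr2, with Lyz2 at 0 counts in every premalignant library. Mural genes summed to 78.1 to 110.5 and 172.4 to 201.6 CPM, most of it Notch3 (89.0 and 169 CPM), which epithelial cells also express, while Acta2 was at 0.265 and 0.497 CPM. Fibroblast genes summed to 148.7 to 165.4 and 126.1 to 203.2 CPM, nearly all of it Fbln1, at 154 and 157 CPM. Col3a1 had no count and Dcn was at 0.131 and 0.0325 CPM. Platelet genes summed to means of 353 and 398.7 CPM, nearly all of it Ppbp, at 345.3 and 387.6 CPM (0.10, adjusted p = 0.844). Epithelial genes summed to means of 13920 and 12460 CPM.

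In a contrast of the guide effect between stages, 5 of the 10 markers passed. This contrast, on the 12 premalignant and tumor libraries and added after the data were seen, called 49.5% of 15671 genes by edgeR, so 5 of 10 lies at the background share. The tumor effect minus the premalignant effect was -4.40 ± 0.48 for Flt1 (SE, log2 scale; adjusted p = 2.58e-06), which rose with the guide in premalignant and fell in tumor libraries. For Esam it was 1.99 ± 0.46 (adjusted p = 0.00218), with the signs the other way round. Kdr (-3.26, adjusted p = 0.0140), Pecam1 (-1.42, adjusted p = 0.0120) and Vwf (-2.44, adjusted p = 0.0155) passed as well, on 2, 11 and 11 counts over the premalignant sgScr libraries. Fitted without a low-count filter, the premalignant comparison alone called none of these (edgeR adjusted p = 0.232, 0.214 and 0.257). Pecam1 did not pass in the tumor comparison either (edgeR adjusted p = 0.0837). The tumor libraries also held the non-epithelial markers described above, whose part in these differences was not tested.

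Under PB the question is what the drug changes in sgTgfbr2 tumor organoids. The endothelial markers were scarce in both groups, and Flt1 was the 1 marker that passed the test. Flt1 stood at 1.15, 0.846 and 1.06 CPM in vehicle and at 0.467, 0.264 and 0.451 CPM under PB, with no overlap. These levels rest on 19, 13 and 17 against 7, 4 and 7 counts. The log2 fold change was -1.22 ± 0.42 (SE; edgeR adjusted p = 0.00738), 2.33-fold lower. The adjusted p ran from 0.00285 to 0.0484 over 12 alternatives, and a filter of 1 CPM left Flt1 untested. The authors' deposited table gave -1.22 with an adjusted p of 0.0675, which is not past the threshold.

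Esam was the other marker tested, at 1.03, 0.911 and 1.62 CPM in vehicle and 0.934, 0.661 and 0.966 CPM under PB. These overlapped, and the log2 difference was -0.34 (95% interval -1.02 to 0.34; edgeR adjusted p = 0.374). Among the 12801 genes tested 36.5% rose and 36.8% fell, against 0 and 1 of the 2 markers. With library totals in place of TMM the share of higher genes among those called went from 49.8% to 34.9%, and the median over all genes from -0.01 to -0.15. Tie1 had 2, 6 and 17 counts in vehicle and 0, 3 and 2 under PB, and passed at -2.04 (adjusted p = 0.0162) only when no low-count filter was used. Vehicle replicate 3 held 17 of its 25 vehicle counts.

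Of the wider endothelial list 14 of 34 genes had enough counts under PB, of which 8 rose and 4 fell. The list counts in this paragraph stand beside 36.5% of all genes rising and 36.8% falling. Cd34 rose from 44.9 to 78.3 CPM (log2 fold change 0.94, edgeR adjusted p = 2.04e-28) and Ets2 from 152 to 218 CPM (0.65, adjusted p = 9.21e-31). Egfl7 fell from 9.47 to 3.67 CPM (-1.22, adjusted p = 5.00e-11) and Eng from 1.10 to 0.153 CPM (-2.65, adjusted p = 5.59e-06). In the capillary, arterial and venous list 4 of 8 rose and 3 fell, among them Apln, the ligand of the apelin receptor, from 3.26 to 0.131 CPM (-4.42, adjusted p = 3.82e-15). Vegfa stood at 443 and 452 CPM (0.17, adjusted p = 4.24e-09). Notch3, of the mural list, fell from 292 to 138 CPM (-0.95, adjusted p = 9.52e-41), in libraries where Cdh5 had 1 count in vehicle and 5 under PB in all.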

How the data were processed

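The authors deposited 3 tables of 24421 genes with whole-number counts, normalized values, log2 fold changes and p-values, per the file headers. The submitters' processing notes name the aligner STAR 2.6.0a, the tool DESeq2 1.26.0 and, as genome build, mm10. How reads were assigned to genes, with which strand setting and annotation, is not given in the sources used here. Only for comparison were the authors' log2 fold changes and adjusted p-values read from the deposited tables, and the 18 normalized columns were not used. Positions and exon lengths (union of all isoforms) came from GENCODE M21 (GRCm38), which held 23350 of the 24394 shared symbols and all 10 markers. The markers' promoters were matched by symbol.

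Samples were grouped by the labels. CPM are counts over the library total (14993749 to 21784140). Each comparison was fitted within its table with edgeR 4.0.16 in R 4.3.3 (filterByExpr with a minimum count of 10, TMM, two-sided quasi-likelihood test, Benjamini-Hochberg adjustment over all genes tested, threshold 0.05). No libraries were merged: chi-square per degree of freedom between libraries of a group was 1.51 to 57.7. Between the premalignant sgTgfbr2 lines it was 38.1 to 57.7, and within line 1 and line 2 it was 6.42 and 7.1. The fit was tested on simulated counts with the library totals and gene spreads of the premalignant, tumor and PB comparisons. It recovered 69%, 56% and 94% of 2-fold changes and 94%, 91% and 100% of 4-fold changes, in that order. False calls were 7.91%, 0% and 4.43% of the calls made. The simulated libraries were independent, with no shared lines, and a far smaller share of genes was changed than was called in the data. These rates need not hold for the comparisons themselves or for genes with few counts. Intervals of log2 differences are 95%, from the SE and the t quantile at each gene's degrees of freedom in edgeR. The interval of the Emcn level in vehicle is the exact Poisson interval of its pooled count.

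The markers and the 13 gene lists were chosen with earlier results of these data known. From each list the text may name up to 4 genes of highest mean CPM and those past the threshold in the premalignant or PB comparison, and not all of these are named. Genes most like the markers were the 8 nearest, leaving out predicted genes. Alternatives were DESeq2 1.42.0, limma-voom (limma 3.58.1), other scalings and filters, a replicate block, single lines and each library left out.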

Additional observations from a re-analysis of the deposited data

Results flagged for a closer look

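Cdh5 and Tie1 in the premalignant sgTgfbr2 group each had 1 library apart from the others: line 2 replicate 1 stood at 0.0920 CPM for both genes, which is 2 counts each, and the other 3 libraries at 0. These are 2 of the 10 values tested in this way in the group of 4, and chance sets about 1 in 20 such values apart. With the other libraries at 0, any single count above 0 stands apart in this way, so that rate need not hold here.

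A test of the difference in guide effect between the premalignant and tumor stages (edgeR, 12 libraries) called 5 markers, which is the share called among all genes (49.5%). The tumor effect minus the premalignant effect on the log2 scale was 1.99 for Esam, -4.40 for Flt1, -3.26 for Kdr, -1.42 for Pecam1 and -2.44 for Vwf. For Kdr, Pecam1 and Vwf the premalignant groups held too few counts to be tested within their own table, and none of these passed there when no low-count filter was used.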

How the results depend on the processing

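In the tumor comparison the 6 marker calls (2 higher and 4 lower) held in 12 alternatives, with 7 calls without sgScr replicate 1. Differences that were not past the threshold changed sign: Tie1 went to 0.14 with library totals without TMM and ranged from -0.392 to 0.0646 when each library was left out (positive without sgTgfbr2 replicate 2), and Emcn from -0.0340 to 0.235 (negative without sgTgfbr2 replicate 1). In the premalignant comparison 1 of the 2 marker calls was left with library totals without TMM, with TMM computed without the genes of all 13 lists, and with the replicate block. When each library was left out, 1 to 2 calls were left. Under PB, 2 markers passed with no filter and 0 with a filter of 1 CPM, which left none to test. In the replicate block, where same-numbered libraries did not deviate together (correlations of -0.09 to 0.08), 4739, 7607 and 9365 genes passed in the premalignant, tumor and PB comparisons, against 6057, 9095 and 9379 without it, and Esam in premalignant organoids had -1.06 (edgeR adjusted p = 0.171). The cause of these changes was not tested.

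The summed CPM moved to 142.7 and 180.6 in the tumor groups and 1.92 in PB without Vwf and Pecam1. Summed per kb it was 1.62 and 1.76 in the premalignant groups, 47.6 and 71.0 in the tumor groups, 1.06 in vehicle and 0.638 in PB. With TMM scaling the tumor sums were 233.1 and 212.4, and without Flt1 and Esam, an alternative added after the data were seen, the 6 sums were 0.834, 1.59, 185.9, 202.4, 1.95 and 1.16. Outside the tumor comparison most markers rest on under 10 counts per library, so their values carry a large counting error.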
